A study of Mus musculus with 6 samples.

Results

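The enzymes that cut the extracellular matrix and their inhibitors were examined by RNA-seq in cultured VSMCs (vascular smooth muscle cells) of the mouse. The genes were taken by name, as all protein-coding genes whose symbol begins with Mmp and a digit or with Adamts, or is one of Timp1 to Timp4. This gave 50 of the 54532 genes in the deposited table, namely 22 Mmp, 19 Adamts, 5 Adamtsl and 4 Timp genes. The rule itself uses names and no measured value, but the families and the gene lists used below were chosen with earlier results of these data known. Shares of called genes set beside those of all genes are therefore descriptions only. Mmp1a is listed in the table as a polymorphic pseudogene, so it fell outside the rule, and it had 0 reads in every library.

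The study compared VSMCs that had received an adenoviral vector with a control plasmid (Ad-Con, 3 libraries, labelled wild type) with cells that had received one with an overexpression plasmid (Ad-PDK4, 3 libraries). The plasmid encoded pyruvate dehydrogenase kinase 4, a mitochondrial enzyme that switches off pyruvate dehydrogenase. Per the study, the VSMCs were isolated by enzymatic digestion from the abdominal aortas of wild-type mice of 10 weeks and used as passaged cultures. Its text also states that both groups were then exposed to angiotensin II (1 µM for 48 h), a vasoactive peptide absent from the labels, and untreated cells were not analysed here. The study calls the 3 libraries of a group biological replicates, but the labels do not say whether they came from separate animals or cultures, so p-values measure only the spread between these libraries.

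Totals ranged from 17588942 to 21861872 reads on genes per library, and 1 read in a gene of 1 kb was worth 0.0453 to 0.0571 FPKM (fragments per kilobase of gene, corrected for sequencing depth). Pdk4 itself was lower, not higher, under the overexpression label (679, 642 and 646 reads in Ad-Con, and 490, 455 and 572 in Ad-PDK4), so each direction below is that of libraries labelled Ad-PDK4 against libraries labelled Ad-Con. If the labels were exchanged every direction would turn, and neither this nor whether the mouse Pdk4 count leaves out the plasmid insert was tested. The smooth muscle identity was weak at the RNA level: Acta2 had 57.1 FPKM over all libraries and Smtn 8.38, but Myh11, Cnn1, Tagln, Des and Mylk had means under 0.5 FPKM. All 8 smooth muscle markers and all 6 fibroblast markers exceeded 3 reads in some library. Of the fibroblast markers (Col1a1, Dcn, Dpt, Pdgfra, Lum and Pi16), only Pi16 had a mean under 0.5 FPKM (0.114). The summed level of the 8 smooth muscle markers was 87.8 to 89.4 FPKM in Ad-Con and 43.3 to 48.1 in Ad-PDK4, most of which was Acta2 (78.0 and 36.2 FPKM in the group means), while Smtn (8.32 and 8.44 FPKM) and Lmod1 were not called. Too low to be tested, Mylk had 188, 168 and 122 reads in Ad-Con and 27, 28 and 24 in Ad-PDK4. Cnn1 (30, 20 and 22 against 17, 8 and 14 reads) and Des (13, 10 and 16 against 4, 3 and 3) were also lower without overlap. Groups without overlap were seen in 12.7% of all genes with reads but a mean under 0.5 FPKM. Tagln and Myh11 overlapped between groups. The summed level of the fibroblast markers was 1302 to 1416 FPKM in Ad-Con and 666 to 728 in Ad-PDK4, most of it Col1a1. Within that list Col1a1, Dpt and Lum fell, Dcn rose (log2 fold change 0.83, limma adjusted p = 4.0e-04) and Pdgfra was not called (-0.05, limma adjusted p = 0.54). Pi16 was too low to be tested, with 25, 9 and 13 reads in Ad-Con and 4, 1 and 0 in Ad-PDK4. The part of these shifts in the results below was not tested. Since these are bulk cultures, fewer cells of a type and less RNA per cell cannot be told apart.

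MMPs are zinc-dependent endopeptidases that are made as inactive proenzymes, and most are secreted while the membrane-type members stay anchored at the cell surface. ADAMTS enzymes are secreted proteases with thrombospondin motifs that trim procollagens and cut large proteoglycans such as versican and aggrecan. TIMPs bind the active site of MMPs and, in the case of TIMP3, also of ADAM and ADAMTS enzymes. In the aortic wall the balance of these proteases and inhibitors is known for its part in the loss of elastin and collagen during aneurysm growth.

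The main difference between the groups was a lower RNA level of several MMPs beside an exchange among the TIMPs. Mmp2, Mmp11, Mmp12, Mmp14 and Mmp15 were lower in Ad-PDK4, whereas the abundant Mmp3 and Mmp13 did not pass the test. Timp1 and Timp3 rose about 3-fold or more in mean FPKM and Timp2 fell. Among the ADAMTS enzymes Adamts5 and Adamts9 rose while Adamts4 and Adamts12 fell. Of the 50 genes, 30 had a mean of at least 0.5 FPKM and were tested with limma on log2(FPKM + 0.1), with adjustment over all 13423 genes tested. At an adjusted p below 0.05, 5 were higher, 14 were lower and 11 were not called, which is 63.3% called against 42.7% of all genes tested. The matching shares over all genes were 21.8% higher and 20.8% lower. With a fold change of at least 2 in addition, 4 were higher and 6 were lower, together 10 of 30, where 6.63% of all genes tested were called (3.95% higher and 2.68% lower). In 21 of the 30 the 3 values of one group lay wholly above those of the other, as they did in 54.3% of all genes tested. The median log2 fold change was -0.15 over the 30 genes and -0.003 over all genes tested. Mmp12 and Adamts12 passed the filter only through their level in Ad-Con.

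**Figure D1:**
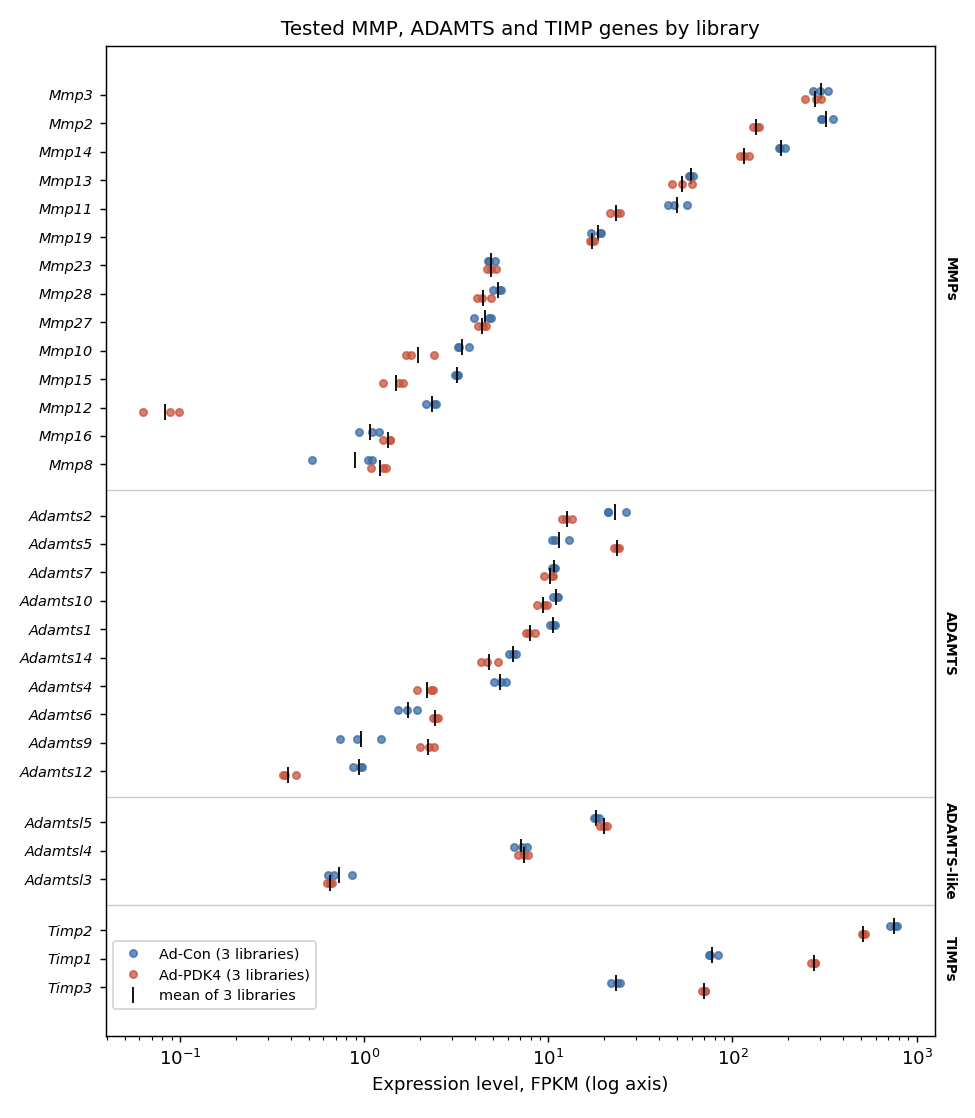
Expression level in FPKM on a log axis for the 30 tested genes, with 1 point per library, Ad-Con in blue, Ad-PDK4 in red and a bar at the mean of each group. Mmp12 showed the widest gap between groups among the MMPs, and the points of Timp1, Timp2 and Timp3 did not overlap.

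Of the 22 Mmp genes 14 were tested, and 7 of these were lower and 0 higher in limma. None was higher at an unadjusted p either, while limma-voom on recovered reads called 1 higher (Mmp16). In limma 50% were thus called, against 42.7% of all genes tested (21.8% higher and 20.8% lower). The gelatinase Mmp2 (chromosome 8, 92827291 to 92853420), which cuts denatured collagen and type IV collagen, was the second most abundant of all 50 genes in Ad-Con. It stood at 306, 353 and 304 FPKM in Ad-Con and at 136, 139 and 129 FPKM in Ad-PDK4. The groups were far apart and varied little within themselves. Its mean was 2.38-fold lower in Ad-PDK4 (log2 fold change -1.25, SE 0.07, limma adjusted p = 6.5e-06), and it went from rank 2 to rank 4 of the 50 genes. The other gelatinase, Mmp9, had at most 3 reads in any library, so a difference in Mmp9 was not detectable at this depth.

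Mmp14 (chromosome 14, 54431612 to 54445364) encodes the membrane-type enzyme that activates the MMP2 proenzyme on the cell surface, with TIMP2 as the bridging molecule. Its level was 182, 192 and 180 FPKM in Ad-Con and 116, 123 and 109 FPKM in Ad-PDK4. The 3 genes of this activation complex, Mmp2, Mmp14 and Timp2, were thus all lower in every Ad-PDK4 library than in any Ad-Con library. Groups without overlap, in either direction, were seen in 54.3% of all genes tested. For Mmp14 the log2 fold change was -0.67 (SE 0.06, limma adjusted p = 6.1e-05). A second membrane-type enzyme, Mmp15, fell from 3.19 ± 0.0538 to 1.48 ± 0.19 FPKM (mean ± SD, n = 3), which is -1.06 in log2 terms (limma adjusted p = 2.7e-04). Mmp16, the third one tested, had 0.935, 1.10 and 1.203 FPKM in Ad-Con and 1.26, 1.37 and 1.38 in Ad-PDK4 and was not called (log2 fold change 0.29, SE 0.15, limma adjusted p = 0.16), although limma-voom on the recovered reads called it higher (0.33, adjusted p = 0.048).

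The stromelysins cut proteoglycans, fibronectin and other matrix glycoproteins, and MMP3 also activates other MMP proenzymes. Mmp3 (chromosome 9, 7445822 to 7455975) was the most abundant MMP in Ad-PDK4 and close to Mmp2 in Ad-Con, with 301, 330 and 273 FPKM in Ad-Con and 286, 249 and 304 in Ad-PDK4. Its groups overlapped, and the log2 fold change of -0.11 (SE 0.09) did not pass (limma adjusted p = 0.38). Mmp10, a close and far less abundant relative of Mmp3, fell from 3.25, 3.70 and 3.24 FPKM to 1.79, 1.69 and 2.39 FPKM (log2 fold change -0.78, SE 0.14, limma adjusted p = 3.2e-03). The groups of Mmp10 did not overlap, and the difference between the changes of Mmp3 and Mmp10 was not tested. Mmp11, which is processed by furin inside the cell and secreted in active form, fell from 49.8 ± 5.95 to 23.2 ± 1.52 FPKM (n = 3), which is -1.10 in log2 terms (SE 0.09, limma adjusted p = 5.9e-05). Of its exon bases 5.58% overlap Chchd10 on the opposite strand, and Chchd10 was also lower (log2 fold change -0.64, limma adjusted p = 9.9e-04). Whether the counting used strand is not given in the sources used here.

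The largest change among the 30 genes was that of Mmp12 (chromosome 9, 7344381 to 7369499), the macrophage metalloelastase, which cuts elastin. It had 354, 312 and 284 reads in Ad-Con and 13, 8 and 14 reads in Ad-PDK4, or 2.40, 2.46 and 2.16 FPKM against 0.0987, 0.0632 and 0.0876 FPKM. Every Ad-PDK4 library was thus near the low end of what could be counted, and Mmp12 passed the filter only through its level in Ad-Con. Mean FPKM was 28.2-fold lower in Ad-PDK4. On the log2(FPKM + 0.1) scale the change was -3.74 (SE 0.25, limma adjusted p = 1.8e-05). That value depends on the pseudocount and was -1.62 with a pseudocount of 1 and -4.67 with 0.01, while limma-voom on recovered reads gave -4.77, each past the threshold. Macrophages are known as a main source of this enzyme. The summed level of 8 macrophage markers was 15.0 to 17.9 FPKM in Ad-Con and 5.91 to 7.44 in Ad-PDK4, most of it Cd68, a lysosomal membrane protein (log2 fold change -1.74, limma adjusted p = 4.4e-04). The defining markers Ptprc, Tyrobp, C1qa and C1qb had 0 reads in every library, Adgre1 had at most 1 read, Lyz2 was not called (0.36, limma adjusted p = 0.079) and Csf1r, under the filter, had 11 to 35 reads in Ad-Con and 56 to 62 in Ad-PDK4. Of these 8 markers 3 exceeded 3 reads in some library. The part of other cells in the Mmp12 level was not tested.

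The interstitial collagenases open the fibrillar collagen triple helix, and in mice Mmp13 is the main one. Mmp13 (chromosome 9, 7272514 to 7283331) had 58.2, 58.8 and 61.0 FPKM in Ad-Con and 53.3, 47.0 and 59.9 in Ad-PDK4. The highest Ad-PDK4 library reached into the Ad-Con range, and Mmp13 was not called (log2 fold change -0.16, SE 0.08, limma adjusted p = 0.17). Without Ad-PDK4 replicate 3, that highest library, Mmp13 passed as lower (-0.25, limma adjusted p = 0.025). Mmp8, the neutrophil collagenase, was near 1 FPKM in both groups, with 52, 47 and 23 reads in Ad-Con and 56, 46 and 70 in Ad-PDK4 (limma adjusted p = 0.20). None of the 6 neutrophil markers exceeded 3 reads in any library. The third collagenase gene, Mmp1b, had 0 reads throughout.

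Of the remaining MMPs, Mmp28 (epilysin) had 5.01, 5.38 and 5.50 FPKM in Ad-Con and 4.11, 4.85 and 4.34 in Ad-PDK4. It fell by 0.25 on the log2 scale (SE 0.09, limma adjusted p = 0.044), a call that was lost under 8 of the alternatives tried, with adjusted p from 0.0522 to 0.145 among them. In addition 12.03% of its exon bases lie under 1700020L24Rik on the opposite strand, which was lower as well (limma adjusted p = 0.046). Mmp19, Mmp23 and Mmp27 were present at 4.39 to 18.5 FPKM in the group means and were not called, with log2 fold changes of -0.10, 0.01 and -0.04. For Mmp19, 28.3% of the exon bases are shared with other detected genes, mainly Tmem198b (limma adjusted p = 0.045, lower), so its value is uncertain.

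**Figure D2:**
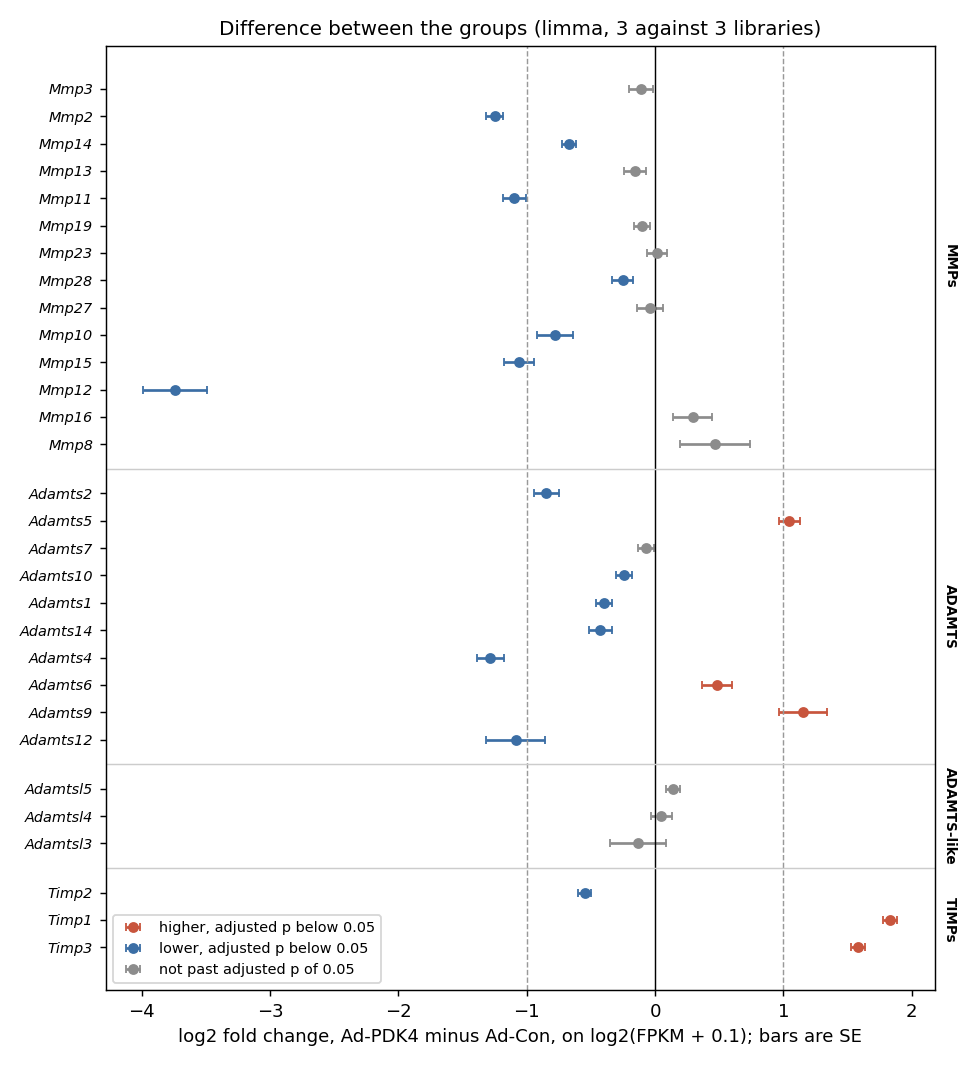
Log2 fold change of Ad-PDK4 against Ad-Con on log2(FPKM + 0.1) for the 30 tested genes, with bars of 1 SE, red for higher and blue for lower at an adjusted p below 0.05, grey for not called, and dashed lines at a fold change of 2. No MMP lay among the higher genes, whereas the ADAMTS and TIMP genes were found on both sides.

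A stretch of 427 kb on chromosome 9 (7272514 to 7699585, GRCm38) holds 9 of the 22 Mmp genes in the order Mmp13, Mmp12, Mmp1b, Mmp3, Mmp10, Mmp8, Mmp27, Mmp20 and Mmp7. All but Mmp1b lie on the plus strand. Levels within it spanned from 0 reads (Mmp1b and Mmp20) to about 300 FPKM (Mmp3). Of the 6 tested, Mmp12 and Mmp10 were lower and Mmp13, Mmp3, Mmp8 and Mmp27 were not called, where 42.7% of all genes tested were called. The genes that fell were not direct neighbours: Mmp3 lies between them with overlapping groups. Mmp7 had 2 reads in 1 Ad-Con library and 0 in the others.

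**Figure D3:**
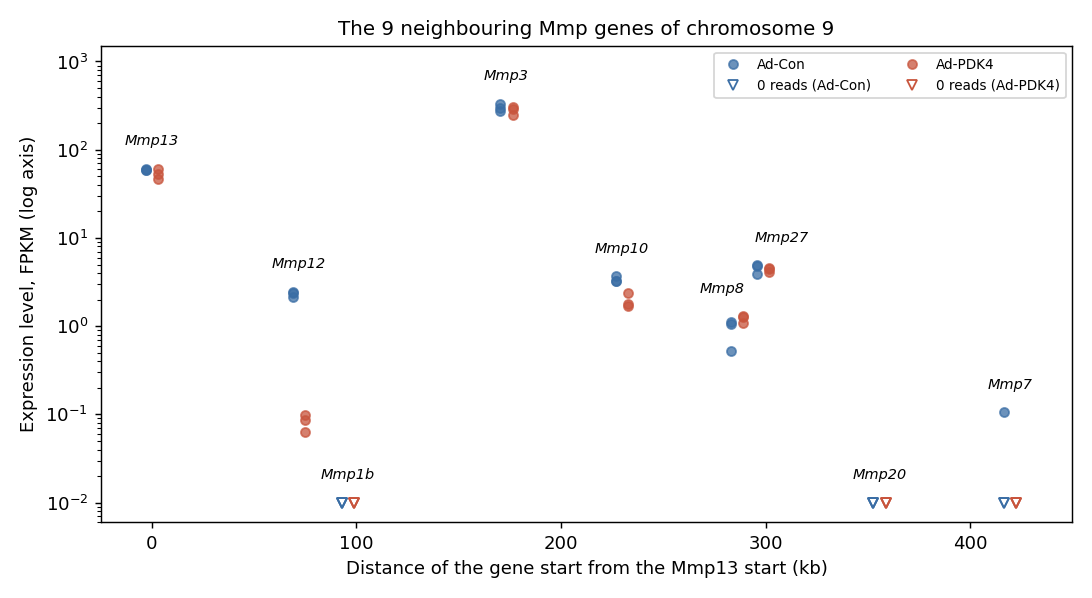
Expression level in FPKM on a log axis against the distance of each gene start from that of Mmp13 in kb, with 1 point per library (Ad-Con blue, Ad-PDK4 red, drawn side by side) and open triangles for libraries with 0 reads. Mmp12 stood apart in Ad-PDK4, while the points of its neighbours Mmp13 and Mmp3 overlapped between groups.

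MMP genes of this kind are known to carry an AP-1 site and a TATA box close to the start of transcription, and AP-1 is the Fos and Jun transcription factor that many growth and stress signals act through. The bases just before the start site are shown for the abundant Mmp3 and Mmp13, which were not called, and for Mmp10 and Mmp12, which were called lower. All 4 hold an AP-1 match, Mmp12 only at the downstream one of its listed start sites. The difference between the changes of these genes was not tested. They are RefSeq sequences on GRCm38.p6, plus strand, 150 bases ending at the base before the start site, with matches to the AP-1 motif (TGANTCA) and to the TATA box in capitals. The letters searched for the TATA box were TATAAA.
Mmp3, chr9:7445672-7445821: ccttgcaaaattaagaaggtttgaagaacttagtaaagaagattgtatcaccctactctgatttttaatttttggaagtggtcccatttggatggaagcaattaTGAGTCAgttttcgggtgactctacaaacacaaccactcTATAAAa
Mmp13, chr9:7272364-7272513: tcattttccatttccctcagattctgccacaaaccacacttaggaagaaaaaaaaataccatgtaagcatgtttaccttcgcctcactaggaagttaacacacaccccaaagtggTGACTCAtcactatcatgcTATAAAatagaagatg
Mmp10, chr9:7502192-7502341: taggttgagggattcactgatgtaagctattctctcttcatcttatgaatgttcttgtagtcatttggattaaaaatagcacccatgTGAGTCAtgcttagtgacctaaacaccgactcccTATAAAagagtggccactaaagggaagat
Mmp12, chr9:7347224-7347373: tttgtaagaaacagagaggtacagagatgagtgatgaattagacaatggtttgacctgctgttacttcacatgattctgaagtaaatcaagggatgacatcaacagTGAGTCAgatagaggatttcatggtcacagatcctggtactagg

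The first base of the AP-1 match stands at -46 in Mmp3, -35 in Mmp13, -63 in Mmp10 and -44 in Mmp12, counted from the start site. For Mmp12 the sequence belongs to the downstream one of 2 listed start sites, and the other held no match. In the whole promoter window of 250 bases before to 50 bases after the start, on either strand, the AP-1 motif was present in 7 of the 38 promoters listed for 35 of the 50 genes, or 18.4%, against 7.81% of 32851 promoters. All 7 belong to the stretch on chromosome 9 (Mmp3, Mmp7, Mmp10, Mmp12, Mmp13, Mmp1b and Mmp20). The TATA box was present in 28.9% of the 38 against 13.6% of all promoters. Matches to the kB motif were found in 0 of the 38 (0.411% of all promoters), and the interferon response (ISRE) core motif was found in 1, that of Mmp13 (2.63% against 3.44%). No AP-1 match overlapped a TATA box match in the 4 printed sequences. Among these the motif stands before genes that were called lower and genes that were not called. A match is a run of letters only, and binding was not measured here.

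The ADAMTS enzymes moved in both directions. Of 19 genes 10 were tested, of which 3 were higher, 6 lower and 1 not called, beside 42.7% called of all genes tested. Hyalectanases cut versican and aggrecan, the large proteoglycans that retain water in the vessel wall. The most abundant of them, Adamts5 (chromosome 16, 85856173 to 85901828), had 10.9, 12.9 and 10.4 FPKM in Ad-Con and 22.8, 24.2 and 23.7 FPKM in Ad-PDK4. Mean FPKM was 2.07-fold higher, with no overlap (log2 fold change 1.05, SE 0.08, limma adjusted p = 4.8e-05). Adamts1, whose gene lies next to Adamts5 on the same strand within 108 kb, went the other way, from 10.2, 10.6 and 10.8 FPKM to 7.61, 8.44 and 7.88 FPKM (log2 fold change -0.40, SE 0.06, limma adjusted p = 1.7e-03). The group means of Adamts5 and Adamts1 were close in Ad-Con, at 11.4 and 10.5 FPKM, and far apart in Ad-PDK4, at 23.6 and 7.98 FPKM.

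Adamts4, the other classical aggrecanase, had 5.54, 5.88 and 5.05 FPKM in Ad-Con and 1.94, 2.30 and 2.35 in Ad-PDK4. It was 2.50-fold lower by mean FPKM (log2 fold change -1.28, SE 0.10, limma adjusted p = 5.4e-05), opposite in direction to Adamts5. Adamts9, a versicanase of the same group, rose from 0.917, 1.23 and 0.737 FPKM to 2.02, 2.40 and 2.25 FPKM (log2 fold change 1.15, SE 0.19, limma adjusted p = 1.9e-03), and about 12% of its exon bases lie under antisense genes at 0.168 FPKM or less. Without Ad-Con replicate 3 the log2 fold changes of Adamts5 and Adamts9 were 0.98 and 0.99, just under a fold of 2, so that 2 genes in place of 4 were higher by that rule, and these were Timp1 and Timp3. Both ADAMTS genes kept an adjusted p below 0.05 in that fit. Among hyalectanases under the filter, Adamts15 had 0.431 to 0.517 FPKM in Ad-Con and 0.258 to 0.336 in Ad-PDK4, and Adamts8 and Adamts20 had at most 1 read.

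Procollagen N-propeptidases remove the amino-terminal propeptide of fibrillar procollagens, a step needed for fibril assembly. Adamts2, the main enzyme of this kind, fell from 21.2, 26.4 and 21.1 FPKM to 12.5, 13.5 and 11.9 FPKM (log2 fold change -0.85, SE 0.10, limma adjusted p = 3.0e-04). Adamts14 fell from 6.40 ± 0.29 to 4.75 ± 0.528 FPKM (n = 3, log2 fold change -0.43, limma adjusted p = 7.2e-03). The substrate gene Col1a1 was lower in the same libraries, at 1056 ± 42.4 FPKM in Ad-Con and 435 ± 49.5 FPKM in Ad-PDK4 (log2 fold change -1.28, limma adjusted p = 1.3e-05). Adamts3, the third enzyme, lay under the filter with 16, 13 and 11 reads in Ad-Con and 23, 25 and 36 in Ad-PDK4.

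Adamts7 and Adamts12 cut cartilage oligomeric matrix protein (COMP), which VSMCs also secrete. Adamts7 had 10.9, 10.7 and 10.5 FPKM in Ad-Con and 10.5, 10.6 and 9.49 in Ad-PDK4 and was not called (log2 fold change -0.07, SE 0.06, limma adjusted p = 0.40). Adamts12 was far scarcer and fell from 0.972, 0.949 and 0.874 FPKM to 0.362, 0.424 and 0.373 FPKM (log2 fold change -1.09, SE 0.23, limma adjusted p = 6.5e-03). Adamts12 passed the filter only through its level in Ad-Con. Of the remaining enzymes, Adamts6 rose from 1.72 ± 0.203 to 2.44 ± 0.0771 FPKM (n = 3, limma adjusted p = 0.012). Adamts10, which is linked to the fibrillin microfibrils, fell from 11.04 ± 0.365 to 9.32 ± 0.541 FPKM (n = 3, limma adjusted p = 0.018), a call that was lost without Ad-Con replicate 1 (adjusted p = 0.058) or 3 (adjusted p = 0.064). Adamts13, Adamts16, Adamts17, Adamts18 and Adamts19 had at most 2 reads in any library.

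ADAMTS-like proteins share the ancillary domains of the ADAMTS enzymes but lack the protease. Of 5 genes 3 were tested and 0 were called in limma or in limma-voom on recovered reads, with 1 (Adamtsl5) at an unadjusted p below 0.05 in each. Adamtsl5 had 18.8, 17.6 and 18.0 FPKM in Ad-Con and 20.04, 20.9 and 19.1 in Ad-PDK4, which do not overlap, and was not called (log2 fold change 0.14, SE 0.06, limma adjusted p = 0.084). It passed as higher after rescaling to TPM (adjusted p = 0.042) and without Ad-PDK4 replicate 3 (adjusted p = 0.049). Adamtsl4 and Adamtsl3 gave adjusted p of 0.68 and 0.67 in limma with overlapping groups.

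Among the inhibitors, Timp2 (chromosome 11, 118301069 to 118355740) was the most abundant of the 50 genes in both groups, with 762, 786 and 714 FPKM in Ad-Con and 508, 522 and 514 FPKM in Ad-PDK4. It fell by 0.55 on the log2 scale (SE 0.05, limma adjusted p = 9.5e-05). Timp1 (chromosome X, 20870166 to 20874735), an inducible and soluble inhibitor, went the other way, from 83.2, 74.8 and 75.7 FPKM to 281, 268 and 282 FPKM. Its 3 Ad-PDK4 libraries lay close together and far above the highest Ad-Con library. By mean FPKM the rise of Timp1 was 3.56-fold (log2 fold change 1.83, SE 0.06, limma adjusted p = 2.8e-07), the largest among the 30 genes.

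Timp3 (chromosome 10, 86300372 to 86349506), the inhibitor that binds to the matrix and acts on ADAM and ADAMTS enzymes as well, had 23.6, 24.4 and 21.9 FPKM in Ad-Con and 68.0, 70.8 and 70.7 FPKM in Ad-PDK4. The groups stood wide apart, a 3-fold rise in mean FPKM (log2 fold change 1.58, SE 0.05, limma adjusted p = 6.0e-07). Timp1, Timp3 and Timp4 each lie inside a synapsin gene on the opposite strand, Syn1, Syn3 and Syn2. Of the exon bases of Timp3 21.3% overlap those of Syn3, but Syn3 had only 0.115 FPKM over all libraries, and Timp1 shares no exon base with Syn1. Timp4 had at most 10 reads in any library and was not tested. In all, 2 of the 3 tested TIMPs were higher and 1 was lower, beside 21.8% and 20.8% of all genes tested. The median log2 fold change of the 14 tested MMPs was -0.21.

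Summed over each family, the MMP genes gave 940, 1036 and 906 FPKM in Ad-Con and 651, 620 and 662 FPKM in Ad-PDK4. The sum of the TIMP genes was 869, 885 and 811 FPKM in Ad-Con and 857, 861 and 867 FPKM in Ad-PDK4. The MMP sum thus lay lower in all 3 Ad-PDK4 libraries, whereas the TIMP sums of the groups overlapped. Their ratio was 1.12 ± 0.0445 in Ad-Con and 0.748 ± 0.0241 in Ad-PDK4 (mean ± SD, n = 3), a description of summed RNA to which no test was applied. Within the TIMP sum the share of Timp1 went from 9.12% ± 0.591 to 32.2% ± 0.903, that of Timp3 from 2.72% to 8.10%, and that of Timp2 from 88.2% to 59.7%. A like sum therefore had a different makeup in the groups. Within the MMP sum the share of Mmp2 went from 33.4% ± 0.799 to 20.95% ± 1.47 and that of Mmp3 from 31.3% ± 1.02 to 43.4% ± 2.92, while Mmp14 held 19.2% and 18.0%. The ADAMTS sum was 82.7 ± 4.36 FPKM in Ad-Con and 76.3 ± 3.28 in Ad-PDK4.

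**Figure D4:**
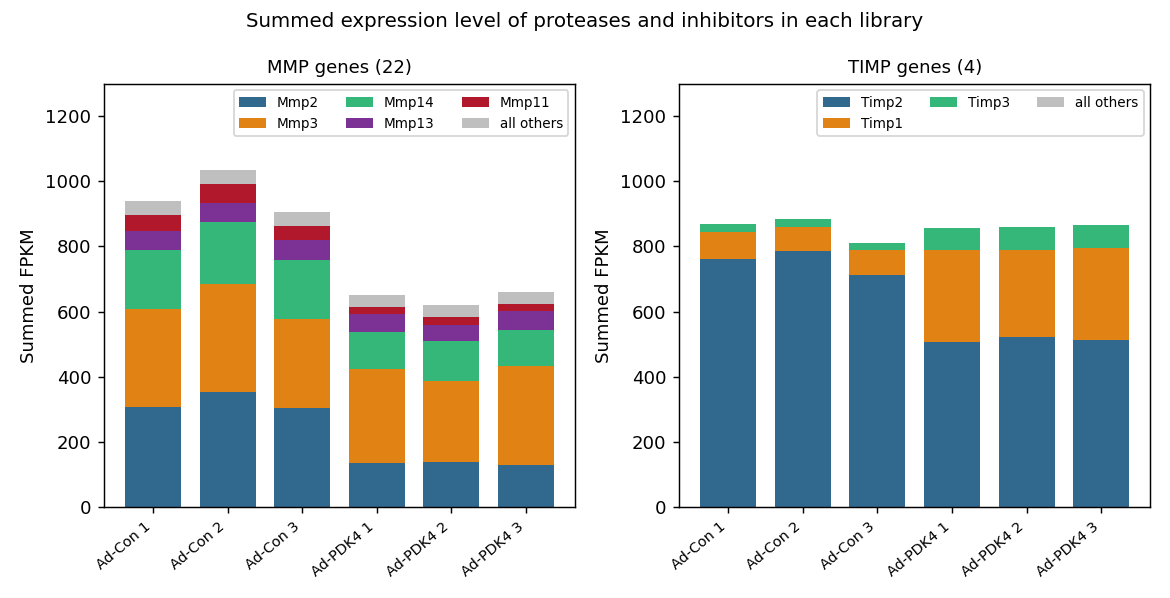
Summed FPKM of the 22 MMP genes (left) and the 4 TIMP genes (right) in each library, as stacked bars from 0 with the abundant genes in colour and all others in grey. The MMP bars were shorter in Ad-PDK4 (620 to 662 against 906 to 1036 FPKM), and the TIMP bars were of like height with a larger Timp1 part.

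A group of 20 genes lay under the filter. No read was found for Adamts13, Adamts19, Mmp1b and Mmp20. Another 8 had at most 3 reads in every library (Mmp7, Mmp9, Mmp21, Adamts8, Adamts16, Adamts17, Adamts18 and Adamts20), so that a difference was not detectable at this depth. The last 8, with more reads, were Adamts15, Adamts3, Mmp17, Adamtsl1, Mmp24, Timp4, Mmp25 and Adamtsl2. The first 5 of these, and no other of the 20 genes, had groups without overlap. That held for 12.7% of all genes above 0 but under the filter, a wider set that includes genes with at most 3 reads. Adamtsl1 had 5, 8 and 13 reads in Ad-Con and 30, 36 and 38 in Ad-PDK4, and Mmp17, a membrane-type enzyme, 21, 18 and 25 against 5, 8 and 14. When all genes with a read were fitted, 0 of these low genes passed in limma, with 2 at an unadjusted p below 0.05 and Adamtsl1 nearest (adjusted p = 0.092), where 3.52% of all genes under the filter did.

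Outside the 3 families, 33 genes were followed as lists. They were chosen as genes that activate, inhibit or anchor these proteases, apart from 10 genes of the related ADAM family. Of 24 tested, 10 were higher, 4 lower and 10 not called, so 58.3% were called against 42.7% of all genes. In the plasminogen system, whose protease plasmin activates several MMP proenzymes, the urokinase activator Plau fell (-0.34, limma adjusted p = 0.035), its receptor Plaur rose (0.51, limma adjusted p = 6.4e-03), Serpine2 fell (-0.77, limma adjusted p = 0.040), and the tissue activator Plat was not called (0.08). In the list of other inhibitors, Sfrp1 rose from 6.91 ± 0.145 to 20.2 ± 2.25 FPKM (n = 3, limma adjusted p = 6.0e-06). Sfrp1 encodes a secreted Wnt antagonist, and its action on MMPs was not measured here. Tfpi2 rose from 0.486 ± 0.111 to 1.24 ± 0.117 FPKM (n = 3, limma adjusted p = 3.6e-03). Tfpi2 passed the filter only through its level in Ad-PDK4. Serpine2, at 0.766 FPKM in Ad-Con and 0.407 in Ad-PDK4, passed only through its level in Ad-Con. The membrane-anchored inhibitor Reck was not called (0.05, limma adjusted p = 0.64).

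Proprotein convertases cleave the furin site of membrane-type MMPs, Mmp11 and ADAMTS proenzymes. Pcsk6 and Pcsk7 rose (log2 fold changes 0.65 and 0.38), and Furin, with no overlap between groups, narrowly missed (0.20, limma adjusted p = 0.055). Of 6 inducers and cell surface partners, the heparan sulfate proteoglycans moved apart, with Sdc4 higher (0.75, limma adjusted p = 1.7e-04) and Sdc1 lower (-0.38, limma adjusted p = 2.1e-03). Bsg (the MMP inducer basigin), Cd44, Cd63 and the endocytic receptor Lrp1 were not called. Among the genes of the related ADAM family, Adam9, Adam17 and Adam23 rose by 0.19, 0.32 and 0.50 on the log2 scale. Adam19 fell from 15.3, 15.4 and 15.3 FPKM to 5.80, 6.79 and 5.20 FPKM (log2 fold change -1.37, SE 0.09, limma adjusted p = 2.2e-05), while Adam10, Adam15 and Adam22 were not called.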

How the data were processed

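RNA of 6 VSMC libraries was sequenced as paired-end reads. The authors deposited FPKM per gene and library, with gene length, biotype and coordinates. The submitters' processing notes name CASAVA 1.8, fastp, HISAT2 2.0.5, featureCounts 1.5.0-p3, DESeq2 1.20.0 and GRCm39. However, 49 of the 50 members have the coordinates of GENCODE M21, so positions are given on GRCm38. The labels and the methods name different library kits. FPKM times length gave whole reads for 100% of non-zero values (within 0.01), and these are the reads quoted.

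Groups came from the treatment labels. The test was limma (version 3.58.1, R version 4.3.3) on log2(FPKM + 0.1), with trend and robust moderation, no covariates and Benjamini-Hochberg adjustment over 13423 genes with a mean of at least 0.5 FPKM. Fold changes on this scale understate the change of low genes. Counting limits cover counting error only. Overlaps and start sites came from GENCODE M21 and RefSeq. The script was tested on simulated data.

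The members and lists were chosen with earlier results of these data known. Named were every member, Pdk4, the listed pathway genes and the markers. Some genes overlapping a member were named besides. A few of these genes and pathway genes are not reported here, although the list counts include them. Results were recomputed with a pseudocount of 1 or 0.01, without a filter or with at least 5 FPKM, TPM, quantile normalization, moderation without trend, a replicate block, limma-voom on recovered reads, and with each library left out.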

Additional observations from a re-analysis of the deposited data

How the results depend on the processing

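Precision was limited by 3 libraries per group and, for genes such as Mmp8 and Mmp12, by few reads. Over the 30 tested genes, the alternatives gave 437 values, 1 per gene and setting. All came from the same 6 libraries, so these values are not independent. Of the 437, 423 lay on the same side of the threshold, and 0 called values had the opposite sign. In 10 a call was lost (8 for Mmp28, 2 for Adamts10). In 4 one was gained (2 for Adamtsl5, 1 each for Mmp13 and Mmp16). The 423 include values of opposite sign, since the uncalled log2 fold changes of Mmp23, Mmp27 and Adamtsl4 lay so near 0 that their sign varied. Requiring a mean of at least 5 FPKM left 17 genes to test, of which 3 were higher and 8 lower, where 52.3% of all 7731 genes tested were called. With a fold of at least 2 in addition, 3 were higher and 2 lower. A pseudocount of 1 left 2 higher with that fold. Leaving out 1 library gave 5 to 6 higher and 12 to 14 lower, and with that fold 2 to 4 higher and 5 to 6 lower, the 2 being without Ad-Con replicate 3. Of all genes tested, 33.8% to 40.2% were called with 1 library left out. After quantile normalization the Ad-PDK4 ratio of summed MMP to TIMP FPKM was 0.721. The replicate numbers showed no sign of a pairing, as the deviations of same-numbered libraries correlated at -0.046, -0.031 and -0.0013. These values cannot tell whether same-numbered libraries shared a culture or an animal. With the replicate block 5 were higher and 14 lower, and with the fold 4 and 6, and over all genes 2759 were higher and 2626 lower in place of 2928 and 2798.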
